A study of Mus musculus with 9 samples.

Results

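The genes described here are 10 members of the Notch pathway: the ligand genes Dll1, Dll3, Jag1 and Jag2, and the downstream genes Hes1, Hes5, Hes6, Hey1, Heyl and Nrarp. They were taken by symbol, from a list drawn up with earlier results of these data known, from the 30406 gene identifiers shared by all 9 single-cell RNA libraries, and all 10 members were present once in each library. The libraries came from mouse embryonic fibroblasts (MEFs) transduced with lentiviruses for neuronal transcription factors, among them Brn2 (Pou3f2) and Myt1l, to make induced neurons (iNs). Expression of the factors was switched on by doxycycline, so every library, WT included, carried the transgenes. MEFs were WT, Per1-/- (the Per1tm1Drw allele) or Per2-/- (the Per2tm1Drw allele), bred from B6.129 lines, and each genotype was sampled on days 4, 7 and 10 of reprogramming with 1 library per genotype and day. The MEFs were made from several embryos of undetermined sex cultured together, without head and heart, so that cells other than fibroblasts can be present. UMIs of Pou3f2 and Myt1l may come from the transgene or from the cell's own gene, and the counts do not tell them apart.

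Notch signaling passes between touching cells. A ligand of the Delta-like or Jagged family on 1 cell binds a Notch receptor on its neighbor, the receptor is cut, and its intracellular domain enters the nucleus and joins RBPJ to switch on repressors of the HES and HEY families. In the developing nervous system these repressors hold down proneural genes, whose products in turn activate ligand genes, and this loop keeps neighbors in different states (lateral inhibition). The same pathway is used in embryonic muscle, glia and vessel walls.

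The libraries held 95603 barcodes, of which 73557 remained after filtering and doublet removal (5625 to 10517 per library), with a median of 14383 to 27247 UMIs per cell. Only 657 of the 72898 distinct barcode sequences (0.901%) appeared in more than 1 library. Clusters were named from marker genes with all members and listed pathway genes kept out of the clustering, which gave 36537 fibroblast-like cells, 9597 neuron-like cells, 6416 macrophage-like cells, 2853 skeletal muscle-like cells, 2555 Schwann-like cells, 1091 astrocyte-like cells, 568 mesothelial-like cells and 13940 unnamed cells. Although the labels call every library induced neurons, neuron-like cells were 13.05% of all cells kept. By library the share ranged between 19.8% and 29.0% on day 4, lay at 5.22% to 11.9% on day 7, and spanned 4.12% to 7.73% on day 10. Unnamed cells were 46.6% of the Per2-/- day 10 library and 35.9% of the WT day 10 library, compared with 7.57% to 19.8% of the others. The WT day 10 library was the poorest, since 55.4% of its barcodes passed the filters compared with 86.1% to 94.5% in the other libraries. The matrices of day 10 were made with a later version of Cell Ranger than those of days 4 and 7, so day 10 and software version cannot be told apart. Over all cells, Per1 was at 9.12 to 10.3 CPM (counts-per-million, the gene's UMIs relative to all UMIs of the same cells) in the 3 Per1-/- libraries and 6.31 to 7.79 CPM in the other 6, and Per2 was at 4.99 to 6.42 CPM in the Per2-/- libraries and 2.57 to 3.16 CPM in the others. These counts are of transcript 3′ ends, so they do not check the alleles, and libraries are named as labelled. Xist was at 0.0679 and 0.0598 CPM in the Per1-/- libraries of days 7 and 10 and at 345.1 CPM or above in the other 7, so these libraries stand apart in a gene that marks female cells.

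In mm10 (GENCODE vM21), all 10 members are protein-coding genes: Dll1 at chr17:15367354-15376872, Dll3 at chr7:28293553-28302238, Jag1 at chr2:137081456-137116644, Jag2 at chr12:112907819-112929776, Hes6 at chr1:91411483-91414038 and Hey1 at chr3:8663359-8667256 on the minus strand, and Hes1 at chr16:30064384-30067796, Hes5 at chr4:154960923-154962371, Heyl at chr4:123233556-123249875 and Nrarp at chr2:25180758-25183339 on the plus strand. RefSeq promoters (GRCm38.p6) were found for 7 of the 10 members. Those of Hes1, Hey1 and Heyl were missing, so these downstream genes were not searched. The 250 bases before each start were searched on both strands for TGGGAA, the core of the site bound by RBPJ. They were also searched for CAGCTG, a form of the E-box bound by basic helix-loop-helix factors. Among 32851 mouse promoters searched in the same way, 21.59% held TGGGAA, 2.77% held it 2 or more times, and 13.001% held CAGCTG. The looser motifs CACNAG and CANNTG, held by 36.67% and 66.22% of these promoters, were also counted and are not described. Hes5, with 88.5% of its UMIs in astrocyte-like cells, had 2 matches to TGGGAA in this window. The E-box form CAGCTG matched once each in Dll3, Jag1, both listed Hes6 promoters and the upstream of the 2 listed Dll1 promoters, and was not matched in the other Dll1 promoter or in those of Hes5, Jag2 and Nrarp. All 250 bases of the Dll3 and Jag2 windows, 153 of the other Dll1 window and 124 of the Jag1 window lie in annotated UTR or coding sequence. The rest of the Jag1 window held no match. Hes5 is shown as the promoter with both TGGGAA matches, and Dll1 and Hes6 as genes with a CAGCTG match that were highest in neuron-like and skeletal muscle-like cells. Each is written 5′ to 3′ on the strand of the gene, with matches to TGGGAA and CAGCTG on either strand in capitals, and a match of letters is not a bound site.
Hes5, chr4:154960673-154960922, plus strand: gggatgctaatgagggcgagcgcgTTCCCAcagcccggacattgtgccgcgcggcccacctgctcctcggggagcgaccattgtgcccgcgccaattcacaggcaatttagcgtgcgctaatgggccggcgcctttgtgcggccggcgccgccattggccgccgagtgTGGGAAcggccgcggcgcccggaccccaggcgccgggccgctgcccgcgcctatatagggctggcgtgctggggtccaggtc
Dll1, chr17:15376933-15377182, minus strand: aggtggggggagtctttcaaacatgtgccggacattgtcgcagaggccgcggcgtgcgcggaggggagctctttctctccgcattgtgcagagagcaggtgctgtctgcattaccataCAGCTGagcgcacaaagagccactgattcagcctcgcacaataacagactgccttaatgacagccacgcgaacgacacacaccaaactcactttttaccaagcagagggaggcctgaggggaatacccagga
Hes6, chr1:91414039-91414288, minus strand: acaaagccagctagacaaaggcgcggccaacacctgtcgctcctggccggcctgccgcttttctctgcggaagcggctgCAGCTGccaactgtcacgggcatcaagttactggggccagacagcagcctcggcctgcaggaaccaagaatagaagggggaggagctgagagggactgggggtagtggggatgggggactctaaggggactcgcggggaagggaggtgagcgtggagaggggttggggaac

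Levels were then compared across cell classes within each library, on UMIs summed per class and library and given as CPM, a scale on which a gene is compared with itself and not with another gene. The ligands Dll1, Dll3 and Jag2 were found mainly in neuron-like and skeletal muscle-like cells. Jag1 had its highest levels in Schwann-like, mesothelial-like and fibroblast-like cells, with skeletal muscle-like cells next.

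**Figure D1:**
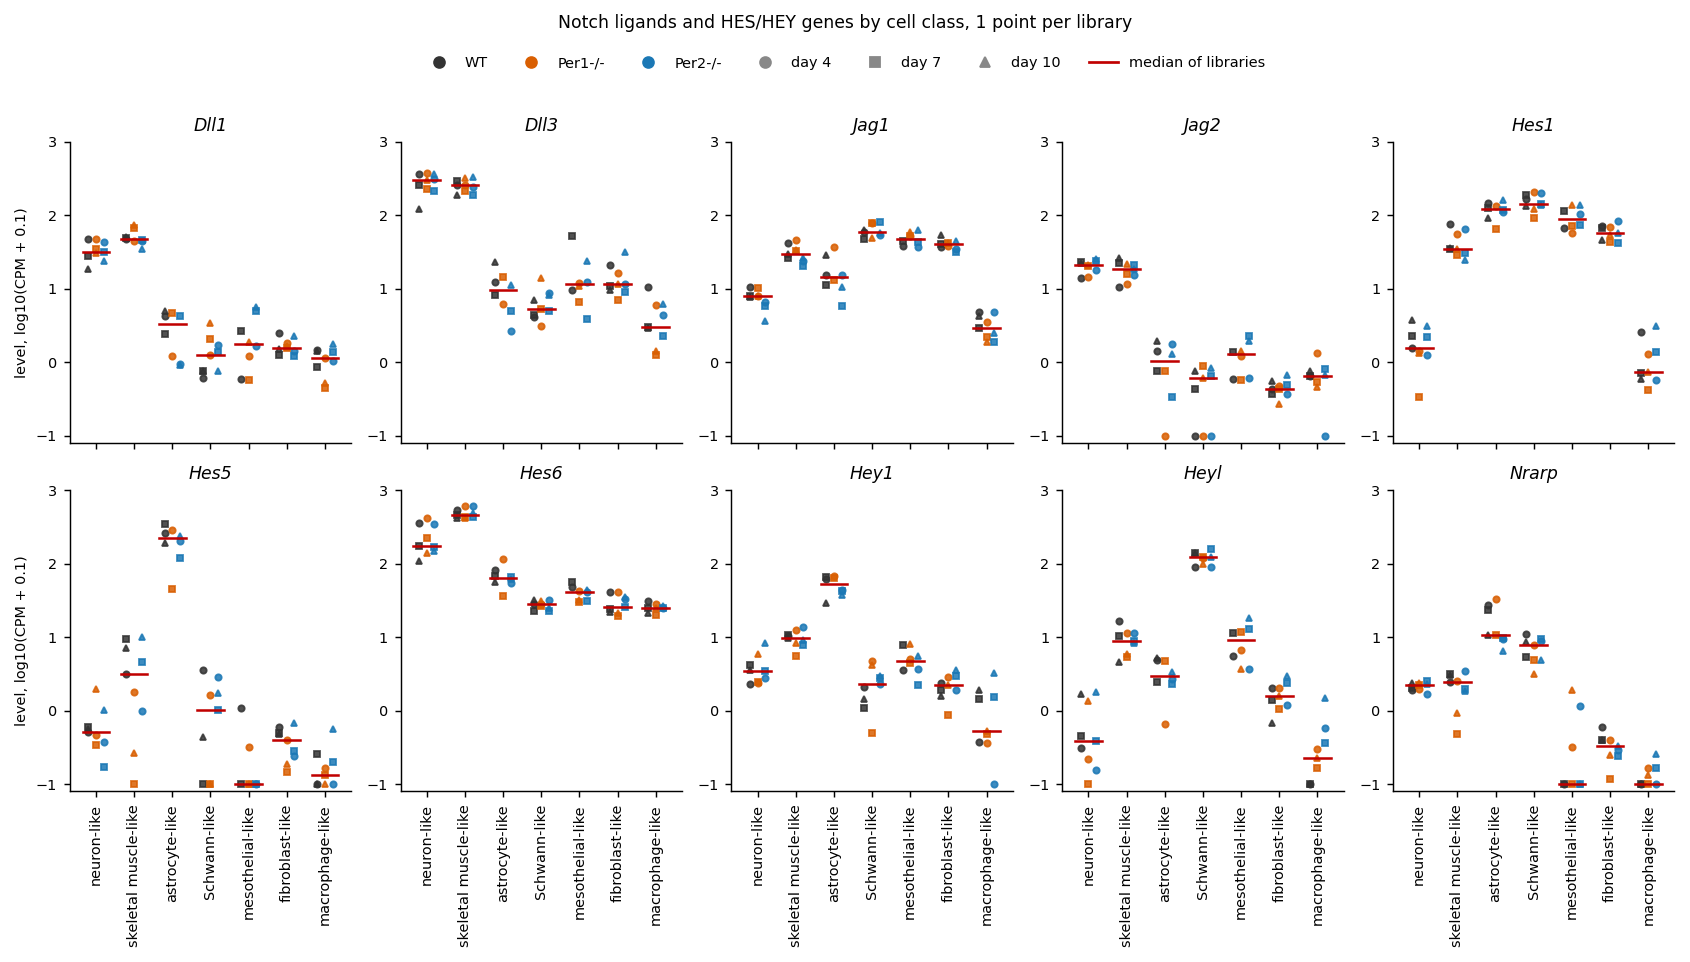
Level of each member in 7 named cell classes (log10 of CPM + 0.1), with 1 point per library, colored by genotype and shaped by day, and a red line at the median. Dll1, Dll3, Jag2 and Hes6 lie highest in neuron-like and skeletal muscle-like cells, Hes5 and Hey1 in astrocyte-like cells and Heyl in Schwann-like cells.

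Dll1, a Delta-like ligand that activates receptors on neighboring cells, was at a lowest, median and highest level of 34.3, 47.5 and 73.4 CPM in skeletal muscle-like cells and 18.8, 31.1 and 48.1 CPM in neuron-like cells. Its median was 3.23 CPM in astrocyte-like cells and at most 1.67 CPM in the other named classes. The level was higher in skeletal muscle-like than in neuron-like cells in 8 of 9 libraries although the ranges overlapped, and the lowest neuron-like library stood above every library of the other 5 classes. Dll3, a divergent Delta-like protein that acts inside the cell on Notch rather than as an activating ligand, was at 123.1, 301.6 and 374.8 CPM in neuron-like cells and 187.1, 256.1 and 327.5 CPM in skeletal muscle-like cells, and these classes did not separate (neuron-like higher in 6 of 9 libraries). Its medians were 11.5 CPM in fibroblast-like cells and 2.94 CPM in macrophage-like cells. With cells thinned to 3000 UMIs, a Dll3 UMI was seen in a median of 58.7% of neuron-like cells, 50.1% of skeletal muscle-like cells, 2.97% of fibroblast-like cells and 1.34% of macrophage-like cells (unthinned, 90.7%, 91.9%, 9.63% and 5.56%, at median depths of 11889.5, 17973, 21710.5 and 23127 UMIs). Macrophage-like cells, a class outside the neural and muscle lineages, were uneven, with Dll3 at 11.6 CPM in 1 cluster of 730 cells and at 1.86 and 2.46 CPM in their other clusters.

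Jag2 followed the same classes as Dll1 and Dll3. This Jagged ligand was at 13.8, 20.7 and 25.0 CPM (lowest, median and highest library) in neuron-like cells and 10.5, 18.4 and 26.3 CPM in skeletal muscle-like cells, and its median was at most 1.19 CPM in every other named class. Jag1, the Jagged ligand of vessel walls and many mesenchymal cells, showed another order, with 47.4, 59.3 and 80.9 CPM in Schwann-like cells, 36.8, 48.2 and 63.9 CPM in mesothelial-like cells and 31.2, 40.7 and 53.6 CPM in fibroblast-like cells. Skeletal muscle-like cells followed at 20.3, 29.9 and 45.6 CPM. Neuron-like cells were at 3.60, 7.86 and 10.6 CPM for Jag1, below every fibroblast-like library. These ranges overlapped between neighbors in the order, and Schwann-like exceeded mesothelial-like cells in 6 of 8 libraries.

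Among the downstream genes, Hes1, a repressor induced by Notch in many tissues, was low in neuron-like cells. It was at 0.238, 1.48 and 3.66 CPM in neuron-like cells compared with 42.2, 56.5 and 82.4 CPM in fibroblast-like cells, and its highest medians were 140.5 CPM in Schwann-like and 123.0 CPM in astrocyte-like cells. Thus, neuron-like cells lay near the macrophage-like level of 0.316, 0.645 and 3.05 CPM, and at 3000 UMIs only 42 of 9592 neuron-like cells (0.438%) held a Hes1 UMI (2.02% unthinned). Skeletal muscle-like cells combined Dll1 and Dll3 with Hes1 at 24.5, 34.9 and 75.8 CPM. Hes5, an RBPJ-dependent repressor of neural progenitors, was at 44.5, 220.1 and 344.2 CPM in astrocyte-like cells over 8 libraries, and no other class had a median above 3.03 CPM. The lowest of these 8 was the Per1-/- day 7 library, which held 51 astrocyte-like cells. Hey1, a related repressor, had the same leading class with 29.2, 53.4 and 68.1 CPM in astrocyte-like cells, followed by 9.77 CPM (median) in skeletal muscle-like cells.

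Heyl, a HEY family member of vessel wall and sensory glial lineages, was at 88.9, 122.5 and 159.0 CPM in Schwann-like cells, and its medians were 8.96 CPM in mesothelial-like cells, 8.70 CPM in skeletal muscle-like cells and 0.288 CPM in neuron-like cells. Nrarp, a feedback inhibitor of Notch, had medians of 10.6 CPM in astrocyte-like, 7.62 CPM in Schwann-like, 2.33 CPM in skeletal muscle-like, 2.14 CPM in neuron-like and 0.230 CPM in fibroblast-like cells. Its neuron-like range of 1.61 to 2.45 CPM lay above the fibroblast-like range of 0.0154 to 0.496 CPM. Hes6, a HES protein that opposes HES1 and promotes neuronal and muscle differentiation, was highest in the same classes as Dll1, with 414.0, 461.1 and 617.5 CPM in skeletal muscle-like cells and 108.6, 172.6 and 417.8 CPM in neuron-like cells. Skeletal muscle-like cells exceeded neuron-like cells in 9 of 9 libraries, and macrophage-like and fibroblast-like cells were at 24.7 and 25.3 CPM (medians).

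A quasi-likelihood fit in edgeR with library as a block gave the size of these differences relative to fibroblast-like cells, as log2 fold change ± SE. The clusters rest on other genes of the same cells, and most genes differed between classes, so the number of members called carries little and the sizes are given. In neuron-like cells, 79.5% of all genes tested were called, and 8 of 10 members were: Jag2 (5.46 ± 0.21, adjusted p = 9.68e-29), Dll1 (4.06 ± 0.22), Dll3 (4.03 ± 0.25), Nrarp (2.80 ± 0.31) and Hes6 (2.58 ± 0.14) were higher, and Hes1 (-5.51 ± 0.26, adjusted p = 1.46e-25), Jag1 (-2.81 ± 0.17) and Heyl (-2.32 ± 0.41) were lower. Hes5 at 0.19 ± 0.41 and Hey1 at 0.38 ± 0.27 did not pass. In skeletal muscle-like cells, where 72.2% of genes were called, all 10 members were, led by Jag2 (5.39 ± 0.21), Dll1 (4.76 ± 0.23), Dll3 (3.997 ± 0.25) and Hes6 (3.83 ± 0.14), with Jag1 (-0.66 ± 0.16) and Hes1 (-0.73 ± 0.19) lower. The members' median was 1.48 in neuron-like and 3.15 in skeletal muscle-like cells, beside 0.01 and -0.02 over all genes tested.

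In Schwann-like cells 68.3% of genes were called. Heyl (6.07 ± 0.30), Nrarp (4.72 ± 0.32), Hes5 (1.59 ± 0.53), Hes1 (1.16 ± 0.19) and Jag1 (0.45 ± 0.16) were higher, and Dll3 was lower (-1.21 ± 0.30), a call that turned to 0.35 (adjusted p = 0.327) without 1 fibroblast-like cluster described below. In astrocyte-like cells 66% of genes were called, and Hes5 (9.24 ± 0.32, adjusted p = 2.65e-30), Nrarp (5.84 ± 0.33), Hey1 (4.46 ± 0.29), Jag2 (1.07 ± 0.39), Hes6 (0.98 ± 0.14) and Hes1 (0.77 ± 0.20) were higher while Jag1 was lower (-1.52 ± 0.19). The macrophage-like comparison called 84.6% of genes, with Hes1 (-5.37 ± 0.26), Jag1 (-3.62 ± 0.19), Heyl (-2.16 ± 0.44), Nrarp (-1.71 ± 0.57), Dll3 (-1.67 ± 0.27) and Hey1 (-0.77 ± 0.31) lower and Jag2 (1.02 ± 0.25) higher. Dll3 was not called there without the same fibroblast-like cluster (-0.10, adjusted p = 0.744). Some of these calls rest on few molecules. Hes5 had 42 UMIs in Schwann-like cells, Jag2 had 22 in astrocyte-like cells, and Nrarp had 3, 3 and 1 in the macrophage-like clusters. For Jag2 the medians were 0.549 CPM in macrophage-like and 0.339 CPM in fibroblast-like cells. Smaller calls depended on single libraries: Jag1 in Schwann-like cells was lost without Per2-/- day 7 (adjusted p = 0.0561), Jag2 in astrocyte-like cells without WT day 4 (0.0686) or WT day 10 (0.111), and Hey1 in macrophage-like cells without WT day 4 (0.0624), Per1-/- day 4 (0.0926) or Per1-/- day 10 (0.0712). Neuron-like cells held 995 to 2637 CPM of the summed fibroblast markers, and Schwann-like cells held 6351 to 11894 CPM of them and 789 to 2320 CPM of the summed neuron markers. Whether these counts reflect impure classes or the cells' own expression was not tested.

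The fibroblast-like reference was itself uneven. Of its 8 clusters, 1 led by Wnt4, Sv2b and Syt13, with 4.97% to 13.1% of fibroblast-like cells by library, held Dll3 at 119.0 to 222.0 CPM, Hes6 at 100.3 to 269.3 CPM and Dll1 at 12.7 to 19.5 CPM over the 9 libraries. Without this cluster, a choice made after seeing the data, the fibroblast-like median fell from 11.5 to 3.60 CPM for Dll3, from 25.3 to 19.2 CPM for Hes6 and from 1.48 to 0.707 CPM for Dll1. The log2 fold change in neuron-like against fibroblast-like cells then became 5.60 for Dll3, 5.27 for Dll1 and 3.07 for Hes6, and that in skeletal muscle-like cells 5.57, 5.95 and 4.32. Leaving out a cluster high in these genes lowers their reference, so the higher folds follow from the choice and are no test. The same holds for Heyl, whose fibroblast-like median fell from 1.48 to 0.945 CPM. Against this reference all 10 members and 66.5% of all genes were called in astrocyte-like cells. There Dll1 went from 0.72 to 1.91, Dll3 from -0.54 to 1.03 and Heyl from 0.68 to 1.14. In macrophage-like cells Dll1 (0.77) and Hes6 (0.59) then passed the threshold as higher, which also follows from the choice. Both were uneven there, at 2.68 CPM for Dll1 and 42.8 CPM for Hes6 in the macrophage-like cluster of 730 cells. The other macrophage-like clusters were at 0.643 and 0.782 CPM for Dll1 and at 22.1 and 21.6 CPM for Hes6.

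The receptors and 2 of the transduced factors were read in the same fit. In neuron-like cells Notch1 (-3.38 ± 0.16), Notch2 (-3.12 ± 0.16) and Notch3 (-3.93 ± 0.21) were lower, and in skeletal muscle-like cells Notch1 (0.92 ± 0.13) and Notch2 (0.38 ± 0.14) were higher and Notch3 (-2.97 ± 0.20) lower. Notch1 was higher in Schwann-like (2.65 ± 0.13) and astrocyte-like cells (2.54 ± 0.14), whose median levels of 179.4 and 173.4 CPM compare with 26.2 CPM in fibroblast-like and 3.80 CPM in neuron-like cells. Notch2 was lower in Schwann-like (-0.69 ± 0.15) and higher in astrocyte-like cells (0.77 ± 0.15), as was Notch3 (1.26 ± 0.18) in the latter, whereas macrophage-like cells were lower in Notch1 (-0.58 ± 0.13) and Notch3 (-4.91 ± 0.24). Hence the classes highest for Dll1 included 1 with little Notch1 and 1, the skeletal muscle-like class, with a median of 58.7 CPM. Pou3f2 was higher in neuron-like cells (4.20 ± 0.28) and lower in skeletal muscle-like cells (-0.60 ± 0.25), and Myt1l was higher in both (7.19 ± 0.33 and 3.77 ± 0.32) and in Schwann-like cells (1.41 ± 0.48). In Schwann-like and macrophage-like cells Pou3f2 was lower (-1.83 ± 0.27 and -2.78 ± 0.28). The reference was uneven for Pou3f2, with a median of 961.1 CPM in 1 fibroblast-like cluster of 3971 cells. Others were at 156.5 and 128.5 CPM, and the rest at 8.68 to 17.9 CPM. Medians were 86.2 CPM in skeletal muscle-like and 43.0 CPM in Schwann-like cells. The lower calls in these 2 classes thus hold against the summed reference and not against each of its clusters. Skeletal muscle-like cells also held 1135 to 2462 CPM of the 16 summed neuron markers, and the part of this in the levels of the ligands there was not tested.

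Of the 67 other pathway genes listed, 58 were tested in the class fit. In neuron-like cells 24 were higher and 25 lower (39.8% and 39.7% of all genes). All 7 tested proneural and reprogramming factors were higher, a list that includes transduced factors such as Pou3f2 and Myt1l. Among them were Neurod1 (8.16 ± 0.52), St18 (6.72 ± 0.24) and Myt1 (6.35 ± 0.25). All 4 ID factors, which are antagonists of proneural proteins, were lower. In skeletal muscle-like cells 33 were higher and 18 lower (35.1% and 37.2% of all genes), with Dner, a Notch-binding protein of neurons (5.36 ± 0.22), Myt1 (5.56 ± 0.24) and Neurod1 (5.34 ± 0.59) among the largest. Schwann-like cells had 21 higher and 20 lower (29.8% and 38.5%), with Dlk1, a non-canonical ligand (-5.56 ± 0.28), Notch3 (-4.83 ± 0.28) and Id1 (-2.46 ± 0.19) among the lower. In astrocyte-like cells 30 were higher and 15 lower (31.2% and 34.9%), with all 4 Notch receptors and all 4 ID factors higher, and Dlk1 (-4.74 ± 0.28), Id4 (3.76 ± 0.23), Dner (3.29 ± 0.21) and Myt1l (3.07 ± 0.40) the largest. Macrophage-like cells had 23 higher and 23 lower (40.1% and 44.5%), led by Hey2 (-6.53 ± 0.58), Dlk1 (-5.60 ± 0.27), Id4 (-5.03 ± 0.33) and St18 (5.01 ± 0.23).

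Across the 61 sums of class and library, genes with a like pattern were ranked by Pearson correlation of log2 (CPM + 1) over 11521 genes. The sums share libraries and classes, so these values are a description. Dll1, Jag2 and Hes6 followed each other, since r was 0.947 between Dll1 and Jag2, 0.935 between Dll1 and Hes6 and 0.944 between Dll1 and Dll3. The genes most like Dll1 were Srrm4 (0.9502), Pde1c (0.947) and Tex14 (0.947). Gse1 (0.945), Dll1 and Srrm3 (0.944) were most like Dll3, and Mir124a-1hg (0.967), Chga (0.966) and Celf3 (0.961) were most like Jag2. Zbtb18 (0.953), Usp20 (0.951) and Lzts1 (0.951) led for Hes6. Jag1 and Hes1 formed another pair (0.836), nearest to Syde1 (0.947), Hspg2 (0.942) and Igfbp7 (0.937) for Jag1 and to Spry2 (0.957), Arhgef10 (0.955) and Plce1 (0.955) for Hes1. Hes5 and Hey1 were alike at 0.859; Mir9-3hg (0.955), Pax6 (0.952) and AC154683.1 (0.9502) were closest to Hes5, and Wwc1 (0.8996), Gm3764 (0.896) and Kctd5 (0.888) to Hey1. For Heyl they were Stard13 (0.944), Lims2 (0.940) and Sntb1 (0.928), and for Nrarp Zfp24 (0.908), Igsf11 (0.905) and Ttyh1 (0.903).

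Neuron-like cells fell into 1 cluster led by Igfbpl1 (6115 cells) and 1 led by Nts (3482 cells). The cluster led by Igfbpl1 had the higher Dll1 (median 37.3 and 20.9 CPM), Jag2 (24.7 and 13.3 CPM) and Hes6 (244.1 and 101.4 CPM) in 9 of 9 libraries each, and the higher Dll3 (306.6 and 249.2 CPM) in 8 of 9. Pou3f2 was in the opposite order, at 1358 CPM in the cluster led by Igfbpl1 and 4808 CPM in the other, with the former lower in 9 of 9 libraries. The neuronal vesicle genes Snap25 (231.6 and 148.5 CPM) and Syt1 (473.5 and 347.0 CPM) were higher in the cluster led by Igfbpl1 in every library. These are descriptions with no test, since the clusters were cut from the same cells.

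The next comparison asked how the members changed over reprogramming, in a fit per class with day and genotype as factors, so that the other genotypes serve as the repeats of a day. The neuron-like sums rest on 1529 to 2307 cells per day 4 library, 314 to 934 per day 7 library and 254 to 813 per day 10 library. In neuron-like cells Dll1 and Hes6 fell, Jag2 rose and Dll3 did not pass. Dll1 was at 47.2, 48.1 and 43.8 CPM on day 4 (WT, Per1-/- and Per2-/-), 27.6, 34.5 and 31.1 CPM on day 7 and 18.8, 30.3 and 24.1 CPM on day 10. All day 4 libraries lay above all later ones. Hes6 was at 360.5, 417.8 and 349.8 CPM on day 4, 172.6, 225.2 and 166.9 CPM on day 7 and 108.6, 141.1 and 148.3 CPM on day 10, with no overlap between any 2 days. Jag2 moved the other way, from 13.8, 14.3 and 18.2 CPM on day 4 to 22.9, 20.2 and 23.6 CPM on day 7 and 22.6, 20.7 and 25.0 CPM on day 10. Days 7 and 10 overlapped for Jag2, and both lay above day 4.

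**Figure D2:**
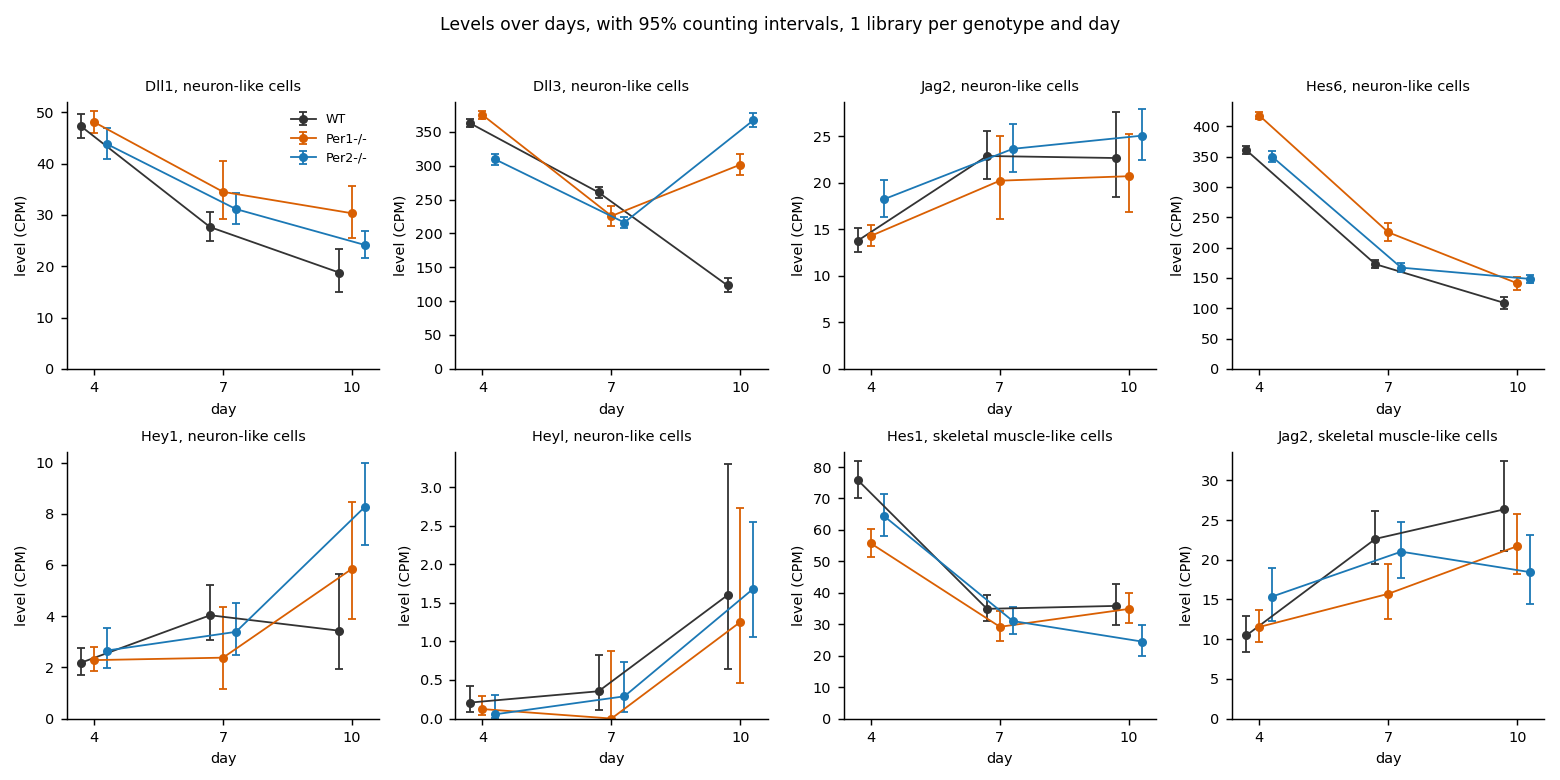
Levels (CPM, linear axes from 0) against day in the named class, with 1 point per library joined within a genotype and bars for the 95% counting interval. Between days 4 and 10, Dll1 and Hes6 decline and Jag2 rises in neuron-like cells in all 3 genotypes, and Hes1 in skeletal muscle-like cells drops from day 4 to day 7.

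On day 7 against day 4, 20.1% of all genes were called in neuron-like cells and 3 members were: Hes6 (-1.004 ± 0.12, adjusted p = 0.000262), Dll1 (-0.59 ± 0.12, adjusted p = 0.00577) and Jag2 (0.54 ± 0.11, adjusted p = 0.00613). By day 10, 44.3% of genes and 6 members were called. Hes6 (-1.41 ± 0.12, adjusted p = 7.59e-06) and Dll1 (-0.84 ± 0.12, adjusted p = 0.000303) were lower, and Jag2 (0.66 ± 0.11), Hey1 (1.42 ± 0.29), Hes5 (1.78 ± 0.58) and Heyl (3.504 ± 0.56) were higher than on day 4. Dll3 was at -0.36 ± 0.29 (adjusted p = 0.342). Its day 10 libraries were far apart, with 123.1 CPM in WT, 301.6 CPM in Per1-/- and 367.0 CPM in Per2-/-. Fitted on each neuron-like cluster alone, the Dll1 change was -1.07 ± 0.13 (adjusted p = 5.58e-05) in the cluster led by Igfbpl1 and -0.09 ± 0.22 (adjusted p = 0.770) in the cluster led by Nts, and the difference between the clusters was not tested. Hes6 (-1.65 and -0.55) and Jag2 (0.46 and 1.33) passed in both, and they were not the only members called in the cluster led by Nts. Hes5 and Heyl did not reach the filter on low counts in that cluster. The day 7 call of Jag2 was lost without the WT day 7 library (0.45, adjusted p = 0.0504).

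The rises of Hes5 and Heyl rest on few molecules. Heyl went from 0.207, 0.123 and 0.0553 CPM on day 4 (7, 5 and 1 UMIs) to 1.60, 1.25 and 1.69 CPM on day 10 (7, 6 and 22 UMIs), and macrophage-like cells reached 1.397 CPM in the highest library. Hes5 was counted 14, 15 and 5 times on day 4 and 2, 9 and 12 times on day 10, and the call was lost when any 1 of the day 4 libraries was left out (adjusted p = 0.0605 to 0.129). Hey1 was at 2.18, 2.28 and 2.66 CPM on day 4 and 3.43, 5.85 and 8.27 CPM on day 10, with no overlap. Over the same days the 11 summed Schwann markers in neuron-like cells went from 63.8 to 68.8 CPM up to 91.3 to 107.0 CPM, the 16 summed neuron markers from 2776 to 3653 CPM up to 6593 to 8164 CPM, and the 14 summed macrophage markers from 24.1 to 58.6 CPM up to 79.6 to 191.6 CPM. Their part in these changes was not tested, nor was that of the astrocyte markers, whose class was highest for Hes5 and Hey1 and whose sums are not given here. In sums over all cells of a class, a shift in the makeup of the class and a change per cell cannot be told apart. The cluster led by Igfbpl1 made up 46.9% to 70.1% of neuron-like cells, lowest in WT day 10, and the fits on each cluster alone are given above.

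**Figure D3:**
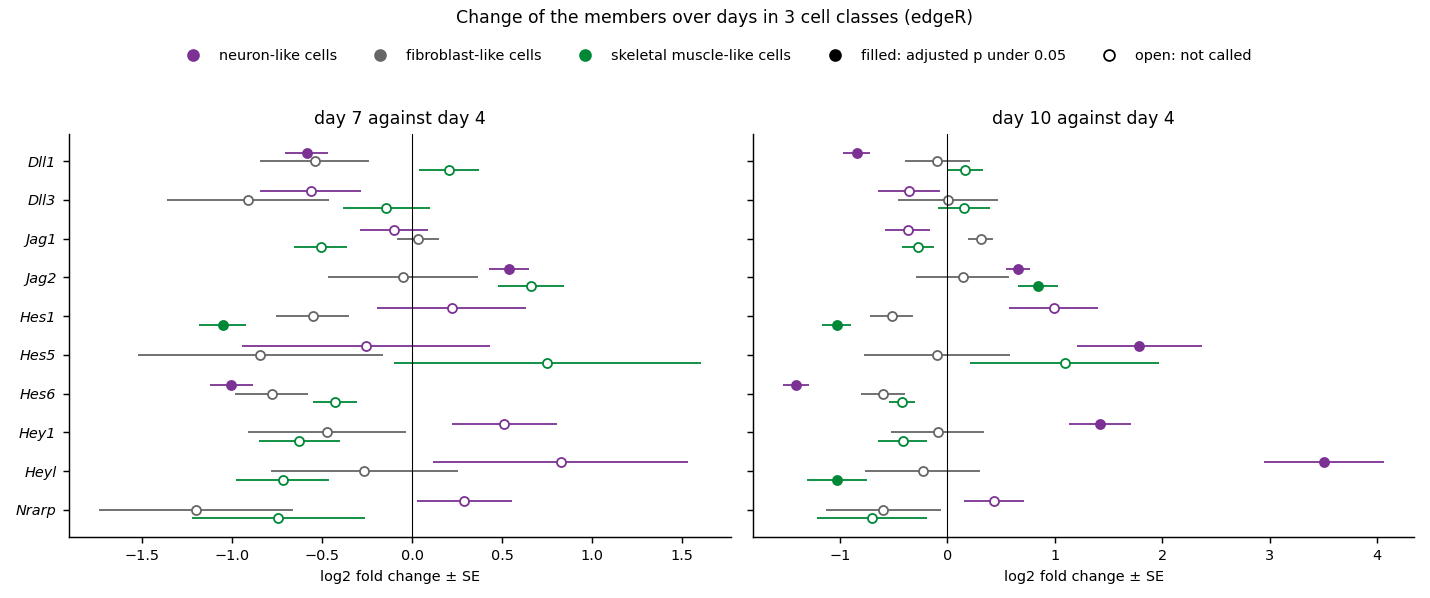
Log2 fold change ± SE of each member on day 7 and day 10 against day 4 in neuron-like, fibroblast-like and skeletal muscle-like cells (edgeR), with filled points for adjusted p under 0.05. Neuron-like points for Dll1 and Hes6 lie below 0 and that for Jag2 above 0 on both days, and no fibroblast-like point is filled.

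In fibroblast-like cells no member was called on day 7 or day 10, among 2.67% and 17.3% of all genes called by edgeR. At unadjusted p under 0.05 there were 2 and 3 members (20.2% and 33.4% of all genes), and DESeq2 called 1 on each day (9.12% and 20.9% of all genes), which was Hes6 (-0.78 ± 0.20 with adjusted p = 0.0935 and -0.60 ± 0.20 with adjusted p = 0.0842 in edgeR). In skeletal muscle-like cells 2.14% of genes were called on day 7, and Hes1 was the 1 member among them (-1.05 ± 0.13, adjusted p = 0.0061). Hes1 went from 75.8, 55.7 and 64.5 CPM on day 4 to 34.9, 29.2 and 31.0 CPM on day 7 and 35.8, 34.9 and 24.5 CPM on day 10, so day 4 stood apart and the later days overlapped. On day 10, where 9.33% of genes were called, Hes1 (-1.03 ± 0.13) and Heyl (-1.02 ± 0.28) were lower and Jag2 (0.84 ± 0.19) was higher. With finer clusters (Leiden resolution 2), fewer members were called, and so were fewer of all genes. The Jag2 call was lost without WT or Per1-/- of day 4 or of day 10 (adjusted p = 0.0620 to 0.1095), and the Heyl call without any 1 library other than Per2-/- day 4 or day 10 (adjusted p = 0.0522 to 0.165), whereas the Hes1 call held without each library. Dll1 and Dll3 in skeletal muscle-like cells were at 0.16 ± 0.17 and 0.15 ± 0.24 on day 10 and did not pass.

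Whether the change over days differed between neuron-like and fibroblast-like cells was tested as an interaction. On day 7, 17.5% of genes and no member differed in edgeR, with 2 members at unadjusted p under 0.05 (31.5% of all genes) and none in DESeq2 (23.6%), which gave no adjusted p for Hes5. In edgeR, 1 member was called with doublets kept and 1 without the fibroblast-like cluster led by Wnt4. The share of all genes called in these refits is not given, so the counts carry no result about the members. By day 10, 33.6% of genes and 6 members differed. The neuron-like minus the fibroblast-like log2 change was below 0 for Dll1 (-0.78 ± 0.23), Hes6 (-0.85 ± 0.21) and Jag1 (-0.79 ± 0.28) and above 0 for Hes1 (1.54 ± 0.39), Hey1 (1.35 ± 0.34) and Heyl (3.54 ± 0.65). For Jag1 and Hes1 the change passed in neither class alone. Without the fibroblast-like cluster led by Wnt4, a choice made after seeing the data, the Dll1 value was -1.26. With finer clusters (Leiden resolution 2) Dll1 was at -1.72 and Hes6 at -1.35. Leaving out the Per2-/- day 10 library ended the calls for Dll1 (-0.56, adjusted p = 0.1197), Jag1 (-0.36, adjusted p = 0.326) and Hes1 (1.48, adjusted p = 0.0976). In that library 46.6% of cells were unnamed and 23.0% were fibroblast-like. Jag1 also fell short without WT day 4 (-0.57), Per1-/- day 4, WT day 10, any day 7 library or the fibroblast-like cluster led by Wnt4 (-0.80, adjusted p = 0.05003), and in DESeq2 (-0.69, adjusted p = 0.1005), with DESeq2 size factors (-0.76), with doublets kept (-0.39) and with finer clusters (-0.40). The call was also lost for Dll1 without Per1-/- day 4, Per2-/- day 4 or WT day 10, and for Hey1 without Per1-/- day 4 (1.16). Hes6 and Heyl passed without each library, although Heyl (2.25, adjusted p = 0.154) and Hey1 (0.72, adjusted p = 0.222) did not pass with finer clusters (Leiden resolution 2). Of 61 other pathway genes tested, 1 was higher and 13 lower for the day 7 interaction (7.48% and 10% of all genes), with Dlk2 (2.44 ± 0.38), Notch3 (-1.46 ± 0.28), Maml2 (-0.86 ± 0.15) and Notch2 (-0.84 ± 0.21) the largest. For the day 10 interaction, 5 were higher and 20 lower (15.6% and 18%), among them Dlk2 (2.71 ± 0.39), Id4 (1.73 ± 0.44), Maml1 (-1.16 ± 0.13), Maml2 (-1.15 ± 0.17) and Notch2 (-1.01 ± 0.23).

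Other genes of the pathway moved over days in neuron-like cells as well. Of 58 tested, 5 were higher and 17 lower on day 7 (1595 and 1324 of 14512 genes in all), and 11 were higher and 28 lower on day 10 (3239 and 3194). Among 12 genes of the nuclear complex, 7 were lower on day 7 and 11 on day 10, with a median of -0.58 compared with -0.02 over all genes. Neurod1, a neuronal differentiation factor, rose by 3.71 ± 0.36 and 4.50 ± 0.35, and Dlk2 by 1.77 ± 0.18 and 2.36 ± 0.19. Myt1l (1.44 ± 0.17) was higher and Notch3 (-1.88 ± 0.33) lower on day 7, and Myt1l was not called higher on day 10. On day 10 Dll4, another Delta-like ligand, was lower (-2.06 ± 0.26), as were Notch3 (-0.99 ± 0.33) and Pou3f2 (-0.60 ± 0.15), whereas Notch1 (1.37 ± 0.31) and Id4 (1.74 ± 0.40) were higher. Notch1 nevertheless stayed at 4.35 to 5.64 CPM in neuron-like cells on day 10. In fibroblast-like cells 1 pathway gene, Id3 (-0.78 ± 0.13), was called on day 7 and was lower (1.47% of all genes), and 4 were higher and 2 lower on day 10 (9.39% and 7.9% of all genes), including Dlk1 (1.56 ± 0.29), Maml2 (0.52 ± 0.11), Notch2 (0.46 ± 0.08), Rbpj (-0.56 ± 0.11) and Id3 (-0.78 ± 0.13). Skeletal muscle-like cells had 2 higher on day 7 (1.58% of all genes), Neurod1 (4.26 ± 0.73) and Neurod4 (2.47 ± 0.51), and 7 higher and 2 lower on day 10 (6.08% and 3.25%), led by Neurod1 (4.63 ± 0.75), Neurod4 (3.87 ± 0.48), Dlk1 (2.13 ± 0.17) and Neurl1b (1.76 ± 0.46).

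Finally, the members were compared between genotypes, with the days as repeats. No member was called for Per1-/- or Per2-/- against WT in neuron-like, fibroblast-like or skeletal muscle-like cells, either by edgeR or by DESeq2. Nor did edgeR call Per2 in Per2-/-, at 1.41 ± 0.24, 1.12 ± 0.16 and 1.47 ± 0.27 in these classes (adjusted p = 0.0865, 0.346 and 0.0668). Per1 in Per1-/- was at 0.27 ± 0.18, 0.66 ± 0.11 and 0.32 ± 0.20 and was not called. The lack of a call is thus not evidence that a gene was unchanged. The share of all genes called was itself 0.00689% and 0% in neuron-like cells for Per1-/- and Per2-/-, 0% for both in fibroblast-like cells, and 0% and 0.149% in skeletal muscle-like cells, and in DESeq2 it was 0.209% and 0.499%, 1.88% and 0.572%, and 0.149% and 1.06% in the same order. Its filter gave no adjusted p in neuron-like cells for Hes5 and Heyl in either comparison, and for Hes1 and Nrarp in that of Per1-/-. At unadjusted p under 0.05 there were 2 members for Per1-/- and 1 for Per2-/- in neuron-like cells (5.37% and 7.85% of all genes), none in fibroblast-like cells (9.47% and 6.37%) and 2 and 1 in skeletal muscle-like cells (5.26% and 11.1%). The lowest was Jag1 in Per2-/- neuron-like cells, at -0.70 ± 0.20 (adjusted p = 0.306), whose levels were 6.48, 5.76 and 3.60 CPM on days 4, 7 and 10 compared with 10.6, 7.86 and 7.55 CPM in WT. Jag1 was called there without the filter on low counts (-0.70, adjusted p = 0.0320), and in the cluster led by Nts alone it was at -1.099 (adjusted p = 0.192). Hes6 and Dll1 in Per1-/- neuron-like cells were at 0.33 ± 0.12 (adjusted p = 0.823) and 0.29 ± 0.13 (adjusted p = 0.898). Hes5 in Per1-/- skeletal muscle-like cells was at -2.70 ± 0.90 (adjusted p = 0.804), with 19, 0 and 1 UMIs compared with 26, 74 and 24 in WT. The Per1-/- libraries of days 7 and 10 are the 2 that nearly lacked Xist, so genotype and Xist level are partly mixed in these comparisons.

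**Figure D4:**
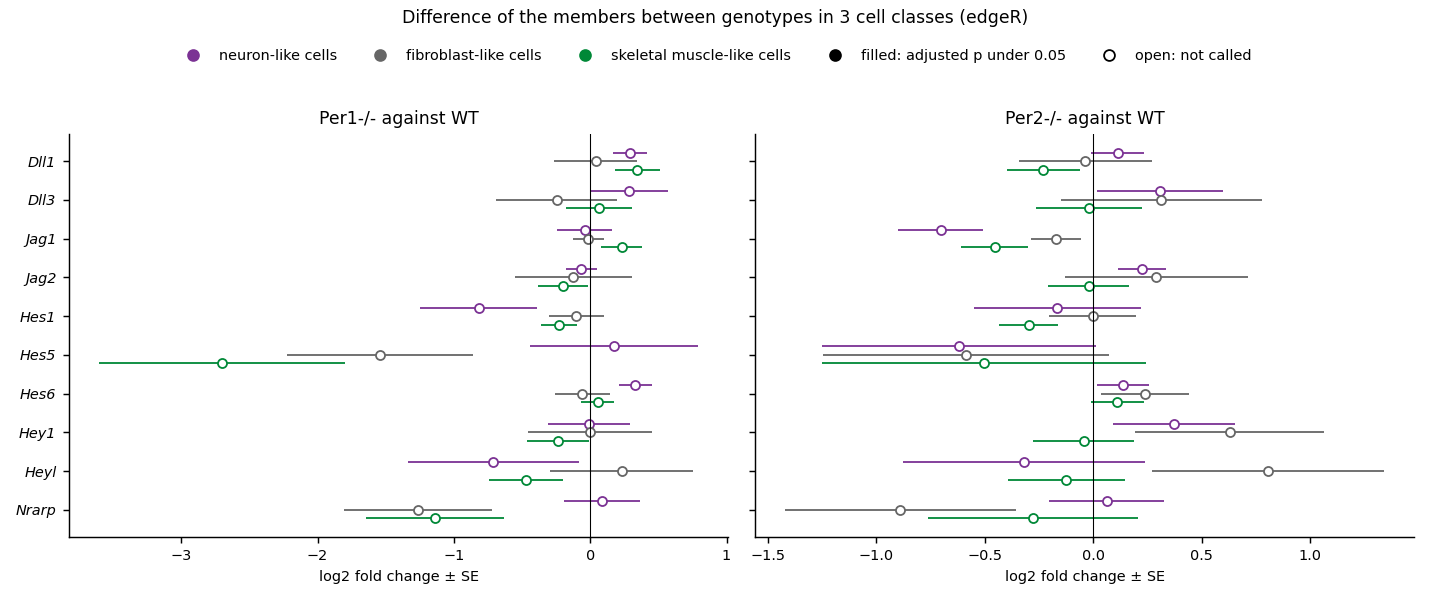
Log2 fold change ± SE of each member for Per1-/- and Per2-/- against WT in neuron-like, fibroblast-like and skeletal muscle-like cells (edgeR), with open points for members not called. All points are open, and in skeletal muscle-like cells Hes5 has the widest bar.

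Hes6 is also the neighbor of Per2: on the minus strand of chr1, Per2 (chr1:91415982-91459324) ends 1943 bases before Hes6 begins. Hes6 in Per2-/- against WT was at 0.14 ± 0.12 (adjusted p = 0.874) in neuron-like, 0.24 ± 0.20 (adjusted p = 0.816) in fibroblast-like and 0.11 ± 0.12 (adjusted p = 0.806) in skeletal muscle-like cells. Its per-library levels in Per2-/- neuron-like cells of 349.8, 166.9 and 148.3 CPM on days 4, 7 and 10 overlapped the WT levels of 360.5, 172.6 and 108.6 CPM. As the same fits did not call Per2 itself, they do not show that Hes6 was unchanged. Of the listed pathway genes, none was called between genotypes in any of these 3 classes, with Notch1 in neuron-like cells at -0.25 ± 0.31 for Per1-/- and -0.78 ± 0.30 for Per2-/-. Myt1l in skeletal muscle-like cells was at -1.08 ± 0.22 (adjusted p = 0.486) for Per1-/- and -0.58 ± 0.22 (adjusted p = 0.360) for Per2-/-, and in neuron-like cells at -0.52 ± 0.17 (adjusted p = 0.785) and -0.44 ± 0.17 (adjusted p = 0.505), comparisons that share the WT libraries.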

How the data were processed

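The authors deposited UMI count matrices, 1 per library, from the 10x Chromium Next GEM Single Cell 3′ v3.1 kit on mm10. Per the file headers, the 6 matrices of days 4 and 7 came from Cell Ranger 4.0.0 and the 3 of day 10 from Cell Ranger 6.0.0, while the submitters' processing notes name version 7.1. The 30406 gene identifiers shared by the 2 gene tables (31053 and 32285 entries) were used, and 0 columns were left unmapped. Total UMI counts were 126625215 to 353198559 per library.

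Barcodes needed at least 3000 UMIs and at most 20% mitochondrial UMIs. Doublets were scored with Scrublet in scanpy 1.11.5, and the top 0.8% per 1000 barcodes were removed, 8442 in all. Cells were clustered with leidenalg 0.10.2 (2000 variable genes, 30 components, resolution 1, 26 clusters), with 90 genes kept out: members, listed pathway genes and mitochondrial genes. Clusters were named from marker lists as "like" a cell type. Counts were summed per class and library where at least 20 cells were present, which left out WT day 10 mesothelial-like and Per1-/- day 10 astrocyte-like cells, and tested with edgeR 4.0.16 (TMM, filterByExpr, quasi-likelihood F-test, two-sided, Benjamini-Hochberg over all genes tested, R 4.3.3). All 10 members passed the filter on low counts in the fits of whole classes with all libraries, and 8 or 9 did in some alternatives with fewer cells or libraries. The SE of a fold change was its size divided by the square root of F. DESeq2 1.42.0 was an alternative. Scripts were tested on simulated data. CPM intervals are exact Poisson intervals at the 95% level, and these and the floor of 3 counts reflect counting error alone.

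Each genotype was sampled by 1 library on each day, so the repeats of a day are the other genotypes and those of a genotype are the other days. The labels do not say whether libraries of a genotype came from separate MEF preparations, so the spread may be partly technical. Xist was at 487.2 CPM in Per1-/- day 4 and nearly absent in Per1-/- days 7 and 10. Whether these 3 libraries held the same mixture of embryos is not given by the labels and was not tested. The members, the pathway and marker lists and the rules were chosen with earlier results of these data known. All members are named. Of the pathway lists, Notch1 to Notch3, Pou3f2 and Myt1l are named, with the called genes of the 4 largest absolute changes per comparison. The 3 genes most like a member were taken among genes with a mean of at least 5 CPM. One listed gene and the comparisons that need it are not reported here.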

Additional observations from a re-analysis of the deposited data

Results flagged for a closer look

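Each of 6 members changed differently from day 4 to day 10 in neuron-like and in fibroblast-like cells by the interaction test in edgeR. The difference of the log2 changes, neuron-like minus fibroblast-like, was -0.784661 for Dll1 (adjusted p = 0.0219), -0.791055 for Jag1 (adjusted p = 0.0492), -0.852412 for Hes6 (adjusted p = 0.00952), 1.53885 for Hes1 (adjusted p = 0.0120), 1.34827 for Hey1 (adjusted p = 0.0121) and 3.54428 for Heyl (adjusted p = 0.0020). Of all genes, 33.6% passed in this comparison. For Dll1 and Hes6 the neuron-like fall was called on its own in edgeR and the fibroblast-like change was not. DESeq2 did call the fibroblast-like fall of Hes6, and the Dll1 fall was not called in the neuron-like cluster led by Nts alone. Hes1 was at 0.99 ± 0.41 in neuron-like cells (adjusted p = 0.0745) and -0.52 ± 0.20 in fibroblast-like cells (adjusted p = 0.118), so neither change passed alone. The neuron-like value rests on few molecules, 50, 54 and 21 Hes1 UMIs on day 4 (WT, Per1-/- and Per2-/-) and 16, 6 and 39 on day 10. That of Heyl rests on fewer, with 35 and 22 UMIs over all libraries in the clusters led by Igfbpl1 and by Nts. Jag1, like Hes1, passed in neither class alone, at -0.37 ± 0.21 and 0.31 ± 0.12. Leaving out 1 library left 3 to 7 members called, a range given without the share of all genes, so it carries no result about the members. Without Per2-/- day 10 the calls for Dll1, Jag1 and Hes1 were lost, without Per1-/- day 4 those for Dll1, Jag1 and Hey1, and with finer clusters (Leiden resolution 2) those for Jag1, Hey1 and Heyl.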

How the results depend on the processing

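The labels give no replicate numbers, so none was used as a block. Days were compared with genotype as a factor, genotypes with day as a factor, and classes with library as a block. Neuron-like cells with and without a Hes1 UMI were not compared by a test, since 42 cells held one and 1 library had 0 such cells. Alternatives that leave out a fibroblast-like or neuron-like cluster were chosen after seeing the data. Of 345 values of called members under other settings, 327 kept direction and side of the threshold, 17 kept the direction only and 1 reversed, which was Dll3 in Schwann-like against fibroblast-like cells (0.354021 without the cluster led by Wnt4). With 1 library left out, 477 of 511 kept both and 34 the direction only.

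The number of members called moved by over 1.5 times, or from 0, as follows. DESeq2's Wald test called 1 in fibroblast-like cells on day 7, 1 on day 10 and 2 in skeletal muscle-like cells on day 7. Without the filter on low counts, 2 were called in skeletal muscle-like cells on day 7 and 1, Jag1, for Per2-/- in neuron-like cells. At Leiden resolution 2, 1 was called in skeletal muscle-like cells on day 10. The day 7 interaction called 1 with doublets kept and 1 without the cluster led by Wnt4. In the cluster led by Nts alone, 3 were called in neuron-like cells on day 10. Below that ratio, 10 members were called in astrocyte-like cells without the cluster led by Wnt4, in place of 7. That choice itself lowered the reference for the added members, Dll1, Dll3 and Heyl. The cause was not tested in any of the other cases.

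With 1 library left out, members called ranged from 8 to 8 in neuron-like, 10 to 10 in skeletal muscle-like, 5 to 7 in Schwann-like, 6 to 8 in astrocyte-like and 6 to 7 in macrophage-like against fibroblast-like cells. Over days they were 2 to 4 and 5 to 7 in neuron-like cells (days 7 and 10), 0 to 0 and 0 to 1 in fibroblast-like cells, 1 to 1 and 1 to 4 in skeletal muscle-like cells, and 0 to 1 and 3 to 7 for the interaction. Between genotypes they were 0 to 0 in all fits except Per1-/- in skeletal muscle-like cells, with 0 to 1. These counts, and those under the other settings, show only how the calls moved. For most refits the share of all genes called is not given beside them, so they carry no result about the members. Over all genes, DESeq2 called 25 and 64 in neuron-like, 281 and 95 in fibroblast-like and 20 and 142 in skeletal muscle-like cells for Per1-/- and Per2-/-, where edgeR called 1, 0, 0, 0, 0 and 20. Without the filter they were 153, 349, 2, 0, 62 and 284. For day 7, DESeq2 called 1425 genes in fibroblast-like cells in place of 452. In skeletal muscle-like cells, day 7 gave 775 genes without the filter and 100 at Leiden resolution 2 in place of 286, and day 10 gave 516 at that resolution in place of 1249. For Per2-/- in skeletal muscle-like cells, 32 were called at that resolution and 2 without day 10. With DESeq2 size factors, the median log2 fold change of all genes in astrocyte-like cells was 0.06 in place of -0.04, the largest such shift between scalings in the class fits.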
